A study of Mus musculus with 16 samples.

Results

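The effect of ruboxistaurin was measured in the whole aorta of diabetic mice, by comparing 4 diabetic mice that received it with 4 diabetic mice that did not. Ruboxistaurin (RBX, also LY333531) is an inhibitor of protein kinase C beta and was mixed into the diet; its dose was not given in the labels used here. These 8 arrays, chosen by their sample titles, are part of 16 arrays with 1 mouse each. The 8 others came from non-diabetic mice with and without RBX, 4 of each. Every mouse in the series, controls included, was APOE-/-, was fed a high fat diet for 10 weeks from 8 weeks of age and was 18 weeks old. In the diabetic groups streptozotocin (STZ), which kills the beta cells of the pancreas, had been given at 6 weeks of age, before the diet began. The diabetes of this model is one of insulin loss, and since all groups share the APOE-/- genotype, RBX was studied only on a background prone to atherosclerosis. Whole aorta is a mix of vessel wall, adventitia and the fat around it, and in such RNA fewer cells of a type and less RNA per cell cannot be told apart. Signals were read for 11042 genes out of 18194 gene symbols on the array.

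Protein kinase C beta is switched on by diacylglycerol. High glucose raises this lipid in cells of the vessel wall, and the kinase has been tied to vascular damage in diabetes. Heat shock proteins are chaperones that hold, refold or hand on unfolded proteins. Hsp70 binds exposed stretches of a protein and is driven through its cycle by Hsp40 partners, while Hsp90 completes the folding of kinases and hormone receptors with the help of its own co-chaperones. Their inducible genes are switched on by the transcription factor HSF1, which binds repeats of a short heat shock element in their promoters.

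The labelled tissue was checked against defining markers. On the 8 arrays the smooth muscle gene Acta2 gave signals from 159420 to 225442, the endothelial gene Pecam1 from 6967 to 13790, the macrophage gene Cd68 from 16847 to 34865 and the fibroblast gene Dcn from 114759 to 184734. Ucp1, the uncoupling protein of brown fat, ranged from 1301 to 20850.2. The markers Cd3e, Cd79a and Ms4a1 of lymphocytes, Lep of white fat and Myh6 and Tnni3 of heart muscle lay below the brightness filter. Other markers of these cells passed it. Adipoq of white fat gave 6827 to 22236, and Tnnt2 and Actc1 of heart muscle 913 to 6628 and 742 to 1650. Cd8a of lymphocytes gave 353 to 688.

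The 2 groups also differed in measures of the arrays, and none of 13 such measures passed adjustment (exact permutation tests, two-sided, smallest possible p 0.0286). Even measures whose groups were fully separate came to an adjusted 0.124 here. The tests thus could hardly pass, and they do not show that the arrays of the 2 groups were alike. Actb has control probe sets at both ends of its transcript, and the log2 ratio of the 3' over the 5' one rises where RNA or its labelling is less complete. It was 1.34 ± 0.17 without and 1.71 ± 0.18 with RBX (SD, n = 4 mice each, exact p = 0.0571, adjusted 0.124). The same ratio of Gapdh was 0.16 ± 0.15 without and 0.39 ± 0.07 with RBX (exact p = 0.0571, adjusted 0.124). The signal of 18S ribosomal RNA at its 5' end lay between 1295 and 2154 without RBX and between 2480 and 24474 with RBX (exact p = 0.0286 on the log2 scale, adjusted 0.124). The highest value belonged to diabetic RBX mouse 4, and the 3 others of that group lay between 2480 and 2868. The rank correlation between any 2 of the 8 arrays was from 0.908 to 0.924, and 0 pairs were identical.

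In the diabetic aorta RBX lowered 4 genes, all of them heat shock chaperones or their partners, and raised 1. The genes that fell were Hspa1b, Hspa1a, Dnajb1 and Dnaja1, and the gene that rose was Son, which encodes a protein of nuclear speckles. The falls made up 0.0362% and the rise 0.00906% of the 11042 genes, together 0.0453% (limma, adjusted p by Benjamini-Hochberg under 0.05). After quantile normalization of the arrays 8 genes rose (0.0724%) and 7 fell (0.0634%), 15 in all (0.136%), among them all 5 called before. At an unadjusted p under 0.05 there were 454 higher (4.11%) and 560 lower genes (5.07%), and in 357 (3.23%) and 403 genes (3.65%) the 4 values with RBX lay wholly above or below the 4 without. The median log2 fold change over all genes was -0.02, with quartiles at -0.15 and 0.12 and a median standard error of 0.17. Changes over 2-fold were seen in 52 genes, 37 of them at an unadjusted p under 0.05.

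**Figure D1:**
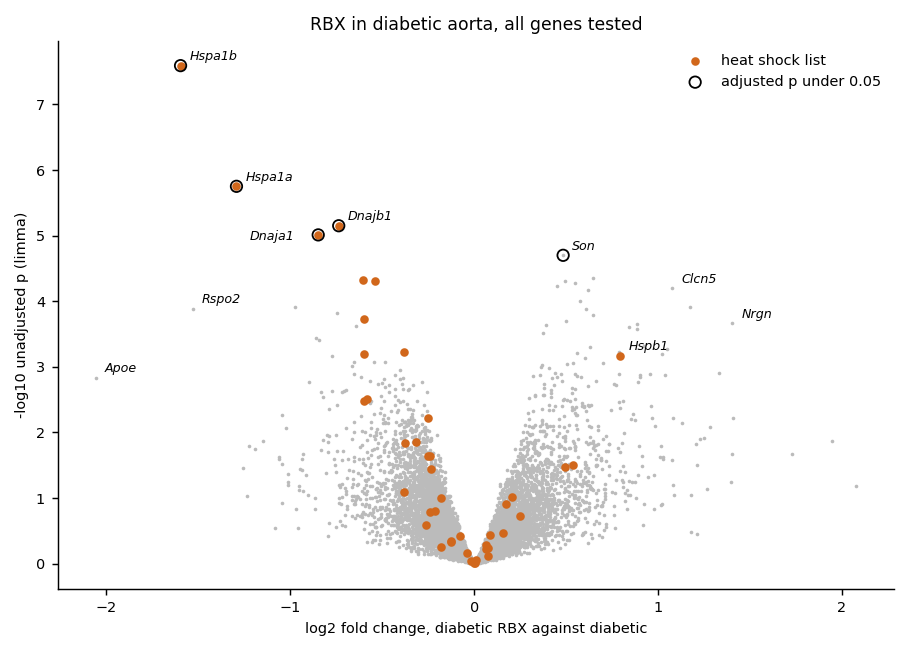
Log2 fold change of each of the 11042 genes between diabetic mice with and without RBX (horizontal, positive is higher with RBX) against minus log10 of the unadjusted limma p (vertical). Orange points are the 43 measured members of the heat shock list and circles the 5 genes past the adjusted threshold. Hspa1b, at -1.60, has the smallest p, while Apoe lies farther left at -2.06.

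The promoters of the 4 chaperone genes that fell are shown with matches to the heat shock element marked. Whether this element had a part in the falls was not tested. The windows are the 250 bases before the annotated start in RefSeq, build GRCm38.p6, written 5' to 3' on the strand of the gene, at chr17:34959239-34959488 (minus strand) for Hspa1b, chr17:34972157-34972406 (minus) for Hspa1a, chr4:40722218-40722467 (plus) for Dnaja1 and chr8:83607925-83608174 (plus) for Dnajb1. Capitals mark a match to GAANNTTC or TTCNNGAA, 2 inverted units of the heat shock element with 2 free bases between them; each motif reads the same on both strands.
Hspa1b: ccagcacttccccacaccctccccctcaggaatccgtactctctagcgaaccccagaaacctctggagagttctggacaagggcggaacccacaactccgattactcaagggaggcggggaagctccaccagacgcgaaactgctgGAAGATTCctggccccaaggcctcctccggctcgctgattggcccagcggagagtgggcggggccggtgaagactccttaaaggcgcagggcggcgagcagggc
Hspa1a: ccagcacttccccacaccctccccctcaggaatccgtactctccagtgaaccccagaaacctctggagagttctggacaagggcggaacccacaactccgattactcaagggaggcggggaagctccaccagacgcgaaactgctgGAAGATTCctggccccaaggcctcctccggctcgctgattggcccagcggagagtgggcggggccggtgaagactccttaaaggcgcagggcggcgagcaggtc
Dnaja1: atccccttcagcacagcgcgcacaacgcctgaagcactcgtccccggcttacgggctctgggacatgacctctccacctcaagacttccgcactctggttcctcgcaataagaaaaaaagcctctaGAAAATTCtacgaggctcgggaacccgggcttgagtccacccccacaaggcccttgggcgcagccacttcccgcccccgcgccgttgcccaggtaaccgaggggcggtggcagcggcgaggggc
Dnajb1: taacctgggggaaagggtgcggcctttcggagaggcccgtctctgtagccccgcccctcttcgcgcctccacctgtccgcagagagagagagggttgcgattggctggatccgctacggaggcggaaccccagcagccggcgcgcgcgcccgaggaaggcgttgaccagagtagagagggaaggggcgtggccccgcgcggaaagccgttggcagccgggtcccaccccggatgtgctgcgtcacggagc
The windows of Hspa1b and Hspa1a were identical at 247 of 250 positions, each with 1 match 104 bases before the start. Dnaja1 held 1 match 124 bases before the start, and in the Dnajb1 window these letters did not occur. A match was present in 14.6% of the 27025 symbols of the table, in 12.2% of the 8949 tested genes it held and in 14 of the 36 heat shock list members it held (38.9%). Of the members lower with RBX at an unadjusted p under 0.05 the table held 15, and 7 of them had a match.

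Hspa1b and Hspa1a encode the stress-inducible Hsp70, the chaperone whose amount rises most on heat or protein damage. Hspa1b gave signals of 22169.9, 25615, 33070.4 and 40479.6 in diabetic mice 1 to 4, and of 9031, 9503, 11186 and 9488 in diabetic RBX mice 1 to 4. The groups did not overlap, the lowest untreated mouse lying well above the highest treated one, and the treated mice lay close together. The log2 fold change was -1.60 (SE 0.17), a 3.02-fold lower signal (limma, adjusted p = 0.000283). Hspa1a gave 6238, 5725, 10447 and 9014.0 without and 2547, 3175, 3262 and 3549.7 with RBX. Here too every treated mouse lay below every untreated one, with a log2 fold change of -1.29 (SE 0.19, limma, adjusted p = 0.00978). The 2 genes are near-identical copies, so that the probe sets may not tell them apart, and the 2 further probe sets of Hspa1b gave -1.86 and -1.73.

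Dnajb1 and Dnaja1 encode Hsp40 proteins, which deliver clients to Hsp70 and stimulate its ATPase. Dnajb1 gave 8175, 6887, 8532 and 7746 without and 4021, 5371, 4975 and 4499 with RBX. The groups were separate, and the fall was 0.74 on the log2 scale (SE 0.12, limma, adjusted p = 0.026). Dnaja1 gave 24214, 19909.6, 22523 and 27493 without and 13101, 13975, 14713 and 10568 with RBX, again with no overlap. Its log2 fold change was -0.85 (SE 0.14, limma, adjusted p = 0.0269), and the other probe sets of Dnaja1 (-0.51 and -0.42) and Dnajb1 (-0.63) were lower too.

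The calls were repeated with single mice left out and with RNA measures in the model. Hspa1b passed in 24 of 24 alternative analyses (log2 from -1.73 to -1.44), whichever of the 8 mice was left out. Hspa1a passed without 5 of the 8 mice and not without diabetic mouse 3 or 4 or diabetic RBX mouse 1 (limma, adjusted p = 0.0556, 0.0734 and 0.0678). Dnajb1 passed without diabetic mouse 2 or diabetic RBX mouse 2 or 3, and not without each of the 5 others (adjusted p from 0.0795 without diabetic RBX mouse 1 to 0.152 without diabetic RBX mouse 4). Dnaja1 passed only without diabetic mouse 2 or diabetic RBX mouse 3, with adjusted p up to 0.176 without each of the 6 others. The fold changes themselves moved little, from -1.43 to -1.14 for Hspa1a, from -0.80 to -0.66 for Dnajb1 and from -0.92 to -0.75 for Dnaja1. With the Actb ratio as a covariate Hspa1b was at -1.54 (adjusted p = 0.0068) and Hspa1a at -1.10 (adjusted p = 0.162), and with the 18S signal at -1.58 (adjusted p = 0.00391) and -1.29 (adjusted p = 0.076). With either covariate only Hspa1b of the 5 genes passed. The 18S covariate was added after the data had been seen.

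**Figure D2:**
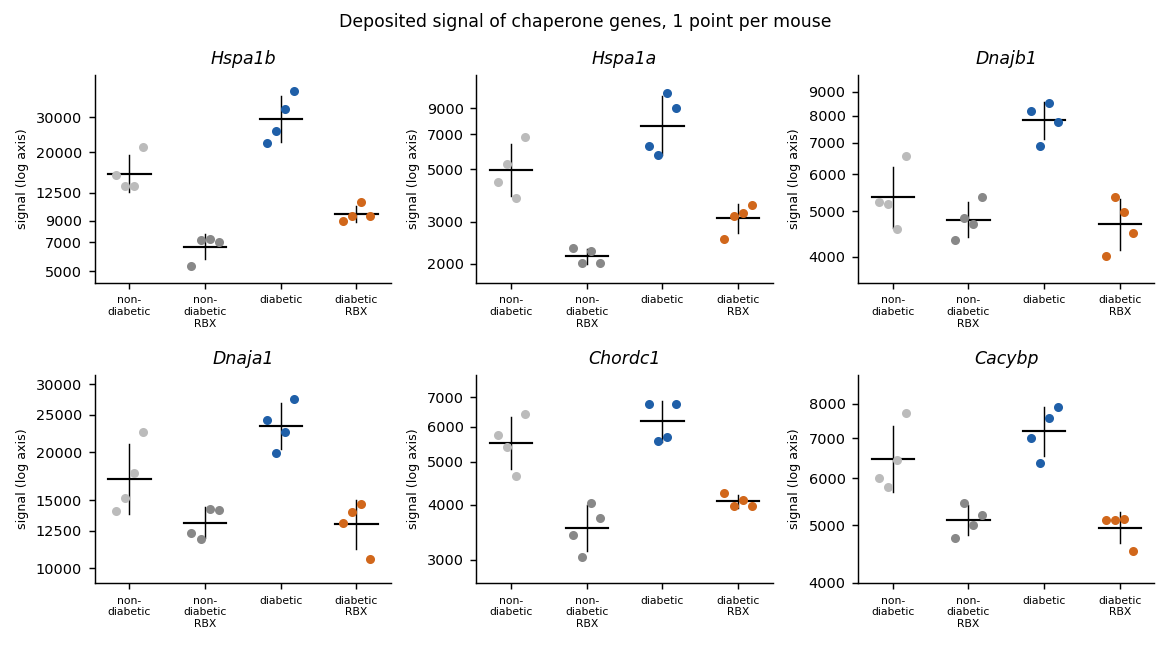
Deposited signal of 6 chaperone genes in every mouse (log axis), with the mean (bar) and 1 SD (line) of the log2 values in each group of 4. In all 6 genes the 4 diabetic RBX mice lie below the 4 diabetic mice, for Hspa1b between 9031 and 11186 against 22169.9 to 40479.6.

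The other Hsp70 genes did not pass adjustment, and most were lower in the treated mice. Of 10 measured members of the Hsp70 and Hsp110 group, the called Hspa1b and Hspa1a included, 8 were below 0, with a median of -0.38. In 6 of the 10, again with these 2 included, the groups did not overlap, against 3.65% of all genes. Hsph1, an Hsp110 that releases ADP from Hsp70, gave 7801, 7608, 8151 and 10302 without and 5499, 5733, 5632 and 5376 with RBX. The treated mice were all lower, and the log2 difference was -0.60 (SE 0.14, limma, adjusted p = 0.181). Hspa2, best known from the testis, was at -0.58 (adjusted p = 0.279), and Hspa9, the mitochondrial Hsp70, at -0.25 (adjusted p = 0.453). Hspa8, the constitutive Hsp70, gave a log2 difference of 0.003 (adjusted p = 0.997), while another of its probe sets was at -0.29 (unadjusted p = 0.0361).

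Among the 10 measured Hsp40 genes the median was -0.19 and 7 were below 0, with 3 lower and 1, Dnajb5 (0.16, adjusted p = 0.809), higher without overlap, against 3.65% and 3.23% of all genes. Besides the 2 that fell, Dnajb4 was at -0.60 (adjusted p = 0.279) and Dnaja2 at -0.25 (adjusted p = 0.35). Of the 11 measured genes of the Hsp90 system 9 were below 0, with a median of -0.21 and 4 lower without overlap. Chordc1, a co-chaperone of Hsp90, gave 6772, 5568, 5687 and 6766 without and 4255, 3966, 4092 and 3964 with RBX. All treated mice were below all untreated mice, and the log2 difference of -0.60 (SE 0.11) lay just outside the threshold (limma, adjusted p = 0.0577) and inside it after quantile normalization (-0.59, adjusted p = 0.0465). Cacybp, which carries a domain shared with Hsp90 co-chaperones and binds the ubiquitin ligase Siah1, gave 7012, 6359, 7583 and 7901 without and 5104, 5107, 5116 and 4524 with RBX. It too had no overlap, with -0.54 (SE 0.10, adjusted p = 0.0577) and, after quantile normalization, -0.52 (adjusted p = 0.0463). Ahsa2, a relative of the Hsp90 activator Ahsa1, was at -0.60 (adjusted p = 0.0973), whereas Hsp90aa1, the inducible Hsp90 itself, was at 0.07 (adjusted p = 0.914). Fkbp5, a co-chaperone induced by glucocorticoids, was the highest at 0.54 (adjusted p = 0.485).

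The mitochondrial chaperonin gene Hspd1 gave 12065, 11518, 11689 and 12096 without and 8977, 8946, 8699 and 9811 with RBX. The groups were clear of each other, with a log2 difference of -0.38 (SE 0.09, adjusted p = 0.181), and its partner Hspe1 was at -0.23 (adjusted p = 0.501). The small heat shock proteins, which hold unfolded proteins without ATP, lay the other way. Their median over 6 measured members was 0.23, with 5 above 0 and 3 higher without overlap, against 3.23% of all genes. Hspb1 gave 23201, 28638, 30636 and 32532 without and 54514, 41316, 53281 and 49833 with RBX, a log2 difference of 0.79 (SE 0.19, adjusted p = 0.185). Every treated mouse was above every untreated one, and a further probe set of Hspb1 gave 0.77. Hspb7, found in heart and muscle, was at 0.49 (adjusted p = 0.491) and Hspb6, which is phosphorylated in relaxing smooth muscle, at 0.25 (adjusted p = 0.717). Among the 4 others, Bag3, which links Hsp70 to the small heat shock proteins, was at -0.18 (adjusted p = 0.614).

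Over all 43 measured members of the heat shock list (49 listed) the median was -0.18, with 29 below 0, against -0.02 over all genes. The 4 falls were joined by 13 others lower at an unadjusted p under 0.05, 17 in all, and 3 higher, the background shares being 5.07% and 4.11%. Without overlap 14 were lower and 4 higher, against 3.65% and 3.23% of all genes.

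**Figure D3:**
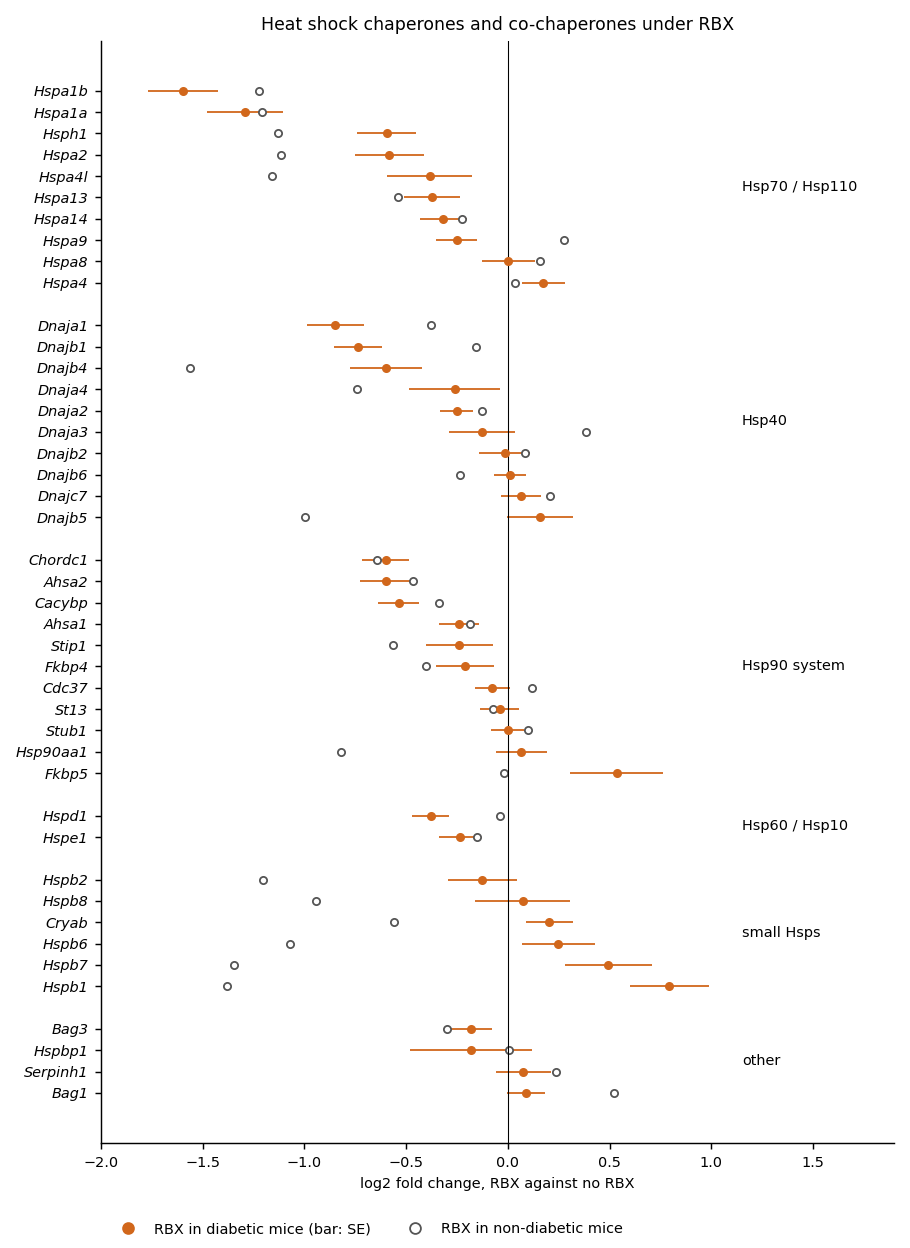
Log2 fold change under RBX for the 43 measured heat shock genes by role, in diabetic mice (filled, bar 1 SE) and in non-diabetic mice (open). Hsp70 and Hsp40 members lie mostly to the left in both, while Hspb1 lies at 0.79 in diabetic and -1.38 in non-diabetic mice.

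Son, a large RNA-binding protein needed for splicing of weak introns, gave 27149, 27136, 25570 and 24355 in the diabetic mice and 34306, 38762, 34463 and 38283 with RBX. The groups were separate, and the rise was 0.48 on the log2 scale (SE 0.08, limma, adjusted p = 0.0441). The call was the least stable of the 5. Of the 6 other probe sets of Son 2 were higher and 4 lower, the mean over its probe sets was -0.06 (adjusted p = 0.894), and it did not pass whichever of the 8 mice was left out (adjusted p from 0.072 to 0.204). Genes of nuclear speckles and splicing were mixed. Of 39 measured members 26 were above 0, with a median of 0.08, 8 higher and 5 lower at an unadjusted p under 0.05, against 4.11% and 5.07% of all genes. Rbm39, a splicing factor, gave 10145, 8849.9, 8960.4 and 9405 without and 12525, 12855, 12758 and 14528 with RBX, and passed after quantile normalization (0.52, adjusted p = 0.0346) but not before (0.49, adjusted p = 0.0577). Its other probe sets ranged from -0.19 to 1.51. Luc7l2, a protein of the U1 small nuclear ribonucleoprotein, was at 0.54 (adjusted p = 0.206), and Pnisr, another protein of speckles, at 0.90 (adjusted p = 0.225).

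Besides Chordc1, Cacybp and Rbm39, 7 genes that missed the threshold in the deposited scaling passed after quantile normalization, 6 of them higher with RBX. Each of the 7 passed in a few of the alternative analyses, from 2 for Pitpnb to 6 for Smarcd3. Meg3, an imprinted long non-coding RNA, gave 15592, 17953, 14449 and 14255 without and 20382, 27953, 24118 and 25068 with RBX, all treated mice being higher (0.64, adjusted p = 0.0577, after quantile normalization 0.66, adjusted p = 0.0346). Smarcd3, a subunit of muscle chromatin remodelling complexes, gave 7147, 6226, 6735 and 5663 without and 11375, 8814, 9844 and 9635 with RBX. The groups were separate (0.62, adjusted p = 0.0577, after quantile normalization 0.65, adjusted p = 0.0332). Myo9b, an unconventional myosin, was at 0.55, and Tnrc6a, a partner of Argonaute in gene silencing, at 0.45, both with an adjusted p of 0.0577, and 0.0332 after quantile normalization. Pitpnb, a phosphatidylinositol transfer protein, was at 0.39 (adjusted p = 0.1, after quantile normalization 0.0463).

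Clcn5, an endosomal chloride and proton exchanger, gave 1966, 1307, 2300.4 and 2371 without and 4022, 4973, 2851 and 4875 with RBX. The log2 difference was 1.08 (adjusted p = 0.0577, after quantile normalization 0.0465), but its 3 other probe sets were at 0.04, 0.15 and -1.06. Rspo2, a secreted enhancer of Wnt signalling, was the only one lower, with 648, 721, 832 and 905 without and 289.6, 249.7, 338 and 208 with RBX. All treated mice were far below the untreated ones (-1.53, SE 0.32, adjusted p = 0.0796, after quantile normalization 0.0463). The treated values all lay below the filter signal of 381.5, where values are least certain. Another probe set of Rspo2 was at 0.70 (limma, unadjusted p = 0.357).

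**Figure D4:**
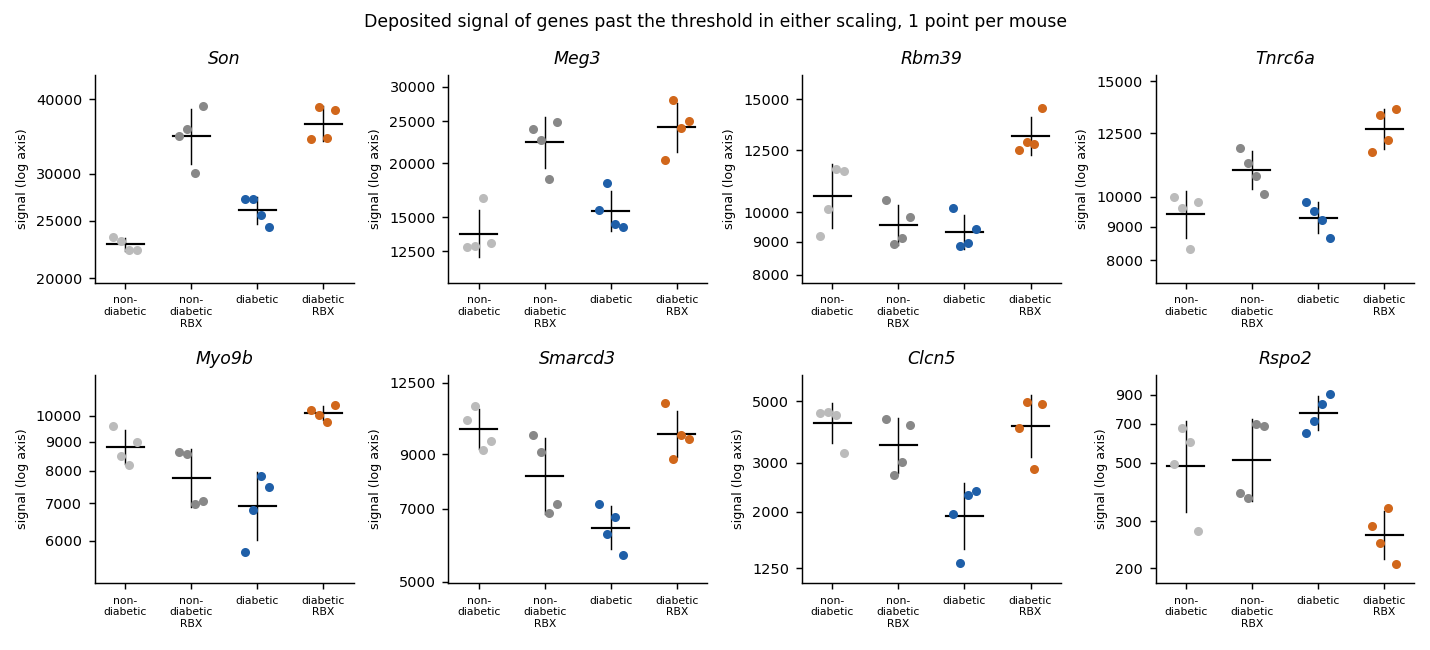
Deposited signal in every mouse (log axis) of 8 genes that passed in the deposited scaling or after quantile normalization, with the mean (bar) and 1 SD (line) of the log2 values per group of 4. The 4 diabetic RBX mice lie above the 4 diabetic mice in 7 panels and below them for Rspo2, at 208 to 338 against 648 to 905.

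Of the other leading genes none passed. Among genes lower without overlap, Plagl2, a zinc finger transcription factor, gave 1224, 1102, 1243 and 1165 without and 668, 539.9, 590.1 and 621 with RBX (-0.97, adjusted p = 0.0796). Slc5a3, a cotransporter of the osmolyte inositol, was at -0.75 (adjusted p = 0.0869), Frzb, a secreted Wnt antagonist, at -0.64 (adjusted p = 0.1) and Npy, the sympathetic neuropeptide, at -1.04 (adjusted p = 0.333). Among the higher ones, Carns1, which makes carnosine, was at 0.58 (adjusted p = 0.0789), Plekha4 at 0.64 (adjusted p = 0.0901) and Sult1a1, a sulfotransferase of phenols, at 1.02 (adjusted p = 0.181). Tnik, a kinase of the Wnt pathway, was at 0.92 (adjusted p = 0.165), and Eppk1, a plakin of epithelial cells, at 1.05 (adjusted p = 0.174). Prkcb, the gene of the kinase that RBX inhibits, was level at 0.04 (SE 0.20, adjusted p = 0.967), with 2085, 2081, 2637 and 2482 without and 2034, 2292, 2278 and 3013 with RBX. The probe set of Apoe, the disrupted gene, gave -2.06 (adjusted p = 0.225), with diabetic RBX mouse 3 at 36.9 and the 3 others between 232 and 453.

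The remaining gene lists held 0 genes past the threshold, so they are described by their members' direction, beside 46.7% of all genes above 0. Genes of the unfolded protein response, which raises chaperones of the endoplasmic reticulum, were mostly lower. Of 32 measured members 25 were below 0 (median -0.16), 10 of them at an unadjusted p under 0.05 and 7 without overlap, against 5.07% and 3.65% of all genes lower by these rules. Hspa5 (BiP), the main Hsp70 of the endoplasmic reticulum, gave 49178, 51296, 57865 and 66444 without and 44189, 41163, 42856 and 41851 with RBX, a log2 difference of -0.39 (adjusted p = 0.234). Manf, a secreted protein of the same response, was at -0.65 (adjusted p = 0.206) and Dnajb9, a partner of BiP, at -0.40 (adjusted p = 0.225). In both of these genes all treated mice were lower.

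Of 33 proteasome subunits 27 were below 0 (median -0.12). So were 15 of 19 genes of the chaperonin and mitochondrial stress list (median -0.09), which shares Hspd1, Hspe1 and Hspa9 with the heat shock list. The proteasome subunit Psma2 was at -0.26 (adjusted p = 0.248). Immediate early genes, which answer growth factors and shear within minutes, had a median of -0.16 over 34 members, with 7 lower and 1 higher at an unadjusted p under 0.05, against 5.07% and 4.11% of all genes. Klf2, a shear-responsive factor of endothelium, gave 7854, 7582, 10316 and 9419.7 without and 6339, 7116, 6623 and 4054 with RBX. All treated mice were lower (-0.56, adjusted p = 0.29), and Jun was at -0.42 (adjusted p = 0.317). Oxidative phosphorylation had 29 of 35 members below 0 (median -0.11), NADPH oxidase and antioxidant genes 20 of 25 (median -0.14) and cell division genes 18 of 20 (median -0.19). At an unadjusted p under 0.05, 0, 2 and 3 of these were lower and 0, 0 and 1 higher, against 5.07% and 4.11% of all genes. The median member level per mouse, set against the mean without RBX, overlapped between the groups in each of these lists. For oxidative phosphorylation it ran from -0.22 to 0.17 without and from -0.16 to -0.03 with RBX. Mcm4, a subunit of the replicative helicase, was at -0.50 (adjusted p = 0.234).

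Contractile smooth muscle genes leaned the other way. Of 26 measured members 25 were above 0, with a median of 0.20, 5 of them higher at an unadjusted p under 0.05 (4.11% of all genes) and 2 without overlap (3.23% of all genes). Ppp1r14a, an inhibitor of myosin phosphatase that protein kinase C phosphorylates, gave 8324, 8349.7, 6408 and 6639 without and 11813, 10543, 10981 and 8985 with RBX, with no overlap and a log2 difference of 0.51 (adjusted p = 0.364). Myl6, a myosin light chain, was at 0.53 (adjusted p = 0.258) and Myocd, the coactivator that drives the contractile programme, at 0.42 (adjusted p = 0.413). Acta2, smooth muscle actin, was at 0.29 (adjusted p = 0.418), and at 0.10 after quantile normalization. The mean log2 level of the list lay between 13.98 and 14.23 in the diabetic and between 14.21 and 14.44 in the diabetic RBX mice, so the groups overlapped slightly (exact permutation p = 0.0571, two-sided).

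Markers of adventitial fibroblasts were above 0 in 15 of 17 (median 0.20), 4 of them higher without overlap, against 3.23% of all genes. The mean log2 level of the list overlapped slightly, from 13.92 to 14.26 without and from 14.25 to 14.31 with RBX (exact permutation p = 0.0571, adjusted 0.124). Dpt, a protein that binds collagen and decorin, gave 38940, 44747, 38099.7 and 27227 without and 51678, 58191, 52572 and 49779 with RBX (0.53, adjusted p = 0.248). All treated mice were higher, as they were for Pi16 (0.37, adjusted p = 0.354), a marker of adventitial progenitor fibroblasts. Of 13 markers of resident adventitial macrophages 10 were above 0 (median 0.11). Their median member level per mouse overlapped, from -0.16 to 0.20 without and from 0.08 to 0.18 with RBX. F13a1, a coagulation factor XIII subunit made by such cells, gave 9301, 10589, 12796 and 8903 without and 13723, 17123, 15625 and 15953 with RBX (0.60, adjusted p = 0.297), with no overlap. Lyve1, a hyaluronan receptor, was at 0.51 (adjusted p = 0.427). Macrophage and foam cell genes had 20 of 29 below 0 (median -0.09), with Cd36, a receptor for oxidised lipoprotein, at -0.52 (adjusted p = 0.485), and endothelial genes 13 of 21 below 0 (median -0.05). In both lists the median member level of every treated mouse lay within the range of the untreated mice. For macrophage and foam cell genes it ran from -0.07 to -0.04 with RBX and from -0.42 to 0.21 without. All 7 measured heart and striated muscle genes (median 0.51) and all 7 measured genes of erythrocytes and platelets (median 0.56) were above 0, among them Tnnt2 at 1.28 (adjusted p = 0.364) and Nrgn, high in platelets, at 1.40 (adjusted p = 0.1). The heart and striated muscle list has 24 genes on the array, and 6 of the 7 measured were above 0 after quantile normalization. The mean level of the heart and striated muscle list did not overlap between the groups, running from 9.26 to 9.62 without and from 9.79 to 10.27 with RBX on the log2 scale (exact permutation p = 0.0286, adjusted 0.124). Of its defining genes Myh6 and Tnni3 lay below the filter, while Tnnt2 and Actc1 (0.63, adjusted p = 0.561) passed it. What part these cell types and the Actb ratio had in the gene changes was not tested beyond the covariate above.

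Markers of neutrophils and mast cells were above 0 in 5 of 5 (median 0.36) and those of lymphocytes in 3 of 4 (median 0.20). After quantile normalization 4 of the 5 and 2 of the 4 were above 0. In both lists 0 genes passed an unadjusted p under 0.05. The inflammatory and signalling lists below had medians between -0.17 and 0.14. Interferon response genes had a median of 0.03 over 30 members, and adhesion molecules, chemokines and cytokines -0.17 over 32. Vcam1, the adhesion molecule that captures monocytes, gave 33947, 31816, 31500.0 and 35361 without and 22167, 26768, 27072 and 19239 with RBX. All treated mice were lower (-0.49, SE 0.16, adjusted p = 0.333). Class II antigen presentation had 10 of 14 members above 0 (median 0.14), with H2-Aa at 0.30 (adjusted p = 0.354). The 9 measured protein kinase C isoforms had a median of 0.01, with 0 at an unadjusted p under 0.05, and 21 genes of diacylglycerol metabolism and kinase partners -0.03. In insulin signalling (27 members, median 0.10) the receptor Igf1r was at 0.48 (adjusted p = 0.232) and the binding protein Igfbp3 at -1.02 (adjusted p = 0.371). Bmp2, a bone morphogenetic protein linked to vascular calcification, gave 2117, 2228, 2147 and 1875 without and 1516, 1226, 1428 and 980.2 with RBX (-0.72, adjusted p = 0.248), with no overlap.

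**Figure D5:**
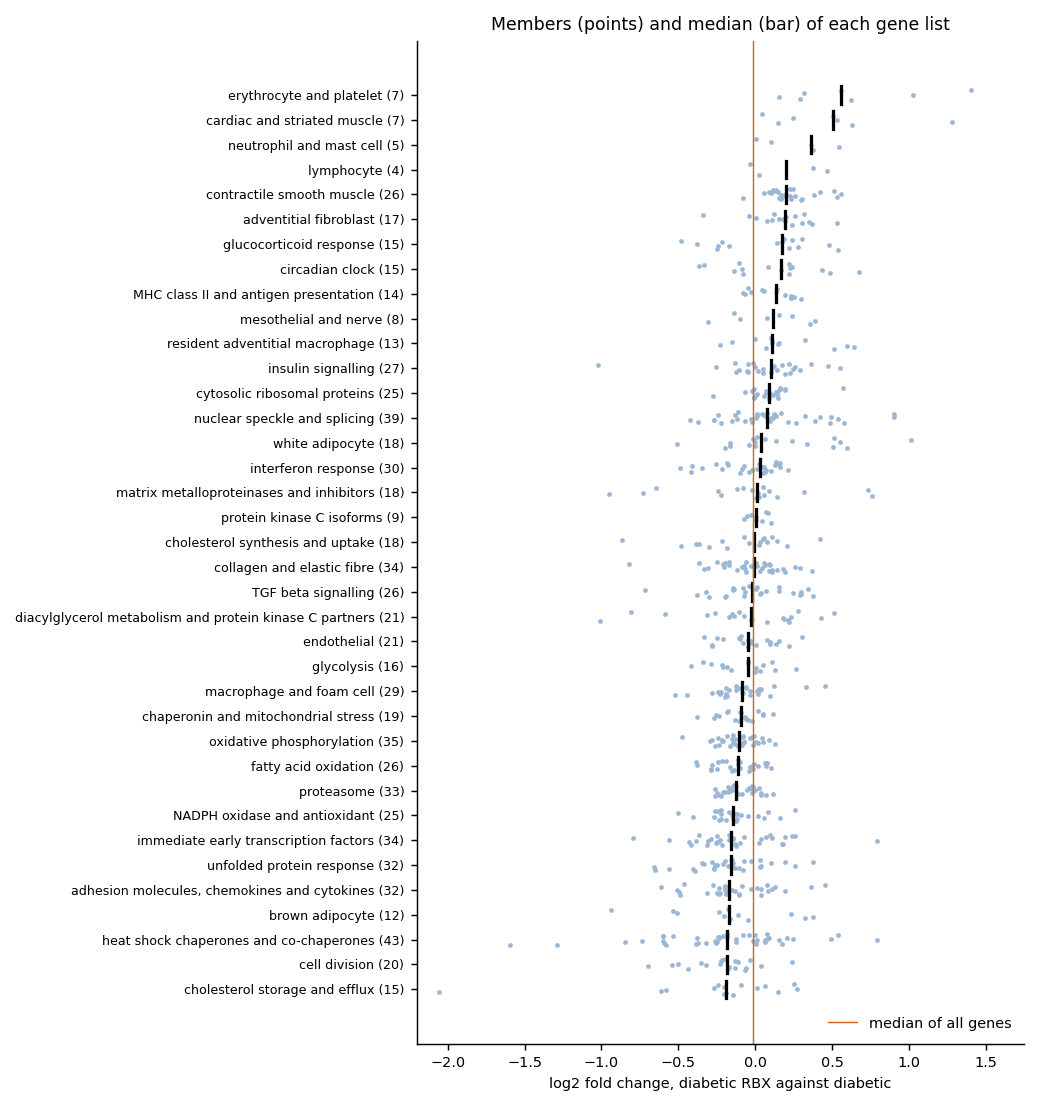
Log2 fold change between diabetic mice with and without RBX for every measured member (points) of 37 gene lists, with the median of each list (black bar) and of all genes (orange line, -0.02); the number of measured members is in brackets. The heat shock list has the lowest single values apart from Apoe and a median of -0.18, and the contractile smooth muscle list lies almost wholly right of 0.

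Among the other lists, collagen and elastic fibre genes were balanced, with 17 of 34 above 0 (median -0.01). Col4a1, a chain of basement membrane collagen, gave 57129.6, 60525, 57110.5 and 52724 without and 71373, 83103, 75083 and 65443 with RBX. All treated mice were higher (0.37, SE 0.09, adjusted p = 0.211), while Thbs1, a matrix glycoprotein released by platelets and injured vessels, was at -0.82 (adjusted p = 0.412). In the circadian clock (15 members, median 0.16) the repressors Per2 and Per3 were at 0.49 (adjusted p = 0.279) and 0.67 (adjusted p = 0.364). Cholesterol storage and efflux genes had 10 of 15 below 0 (median -0.19), with Plin2, the coat protein of lipid droplets, at -0.58 (adjusted p = 0.511). Among 18 matrix metalloproteinases and inhibitors (median 0.01), Timp4 was at 0.73 (adjusted p = 0.487) and the collagenase Mmp13 at -0.95 (adjusted p = 0.501). White adipocyte genes had a median of 0.04 over 18 members and brown adipocyte genes -0.17 over 12, both of a sign that changed with the processing or with the mice included. Fasn, the fatty acid synthase, was at 1.01 (adjusted p = 0.459), with 3487, 3604, 3744 and 3222 without and 7026, 3079, 5243 and 22168 with RBX, so that the groups overlapped and diabetic RBX mouse 4 lay far above the rest. Cytosolic ribosomal proteins had 19 of 25 above 0 (median 0.09), and 13 of 25 above 0 (median 0.02) after quantile normalization.

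The same drug was given to non-diabetic mice, and that comparison shares no array with this one. There RBX changed 3494 genes (31.6%), but those 4 RBX arrays lay away from the 12 others, with a cre hybridisation control of 308745 to 575618 against 156465 to 294507. Hspa1b gave 15254, 13457, 13518 and 21312 without and 5336, 7230.4, 7278 and 7052 with RBX in the non-diabetic mice, a fall of 1.23 on the log2 scale (SE 0.17, limma, adjusted p = 5.83e-05). Hspa1a fell by 1.21 there (adjusted p = 0.000132). For these genes the difference between both effects was -0.37 (adjusted p = 0.341) and -0.08 (adjusted p = 0.869), so a different response was not shown. Diabetes without RBX, which shares the 4 diabetic arrays, stood at 0.92 for Hspa1b (adjusted p = 0.0202) and 0.62 for Hspa1a (adjusted p = 0.117).

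Dnajb1 differed. In non-diabetic mice it was at -0.16 (adjusted p = 0.333), and the difference from the -0.74 of the diabetic mice was -0.58 (limma, interaction, adjusted p = 0.0325). Its mean signal with RBX was close in both, 4813 in non-diabetic and 4716 in diabetic mice. Without RBX it was 5397 and 7835. Diabetes without RBX stood at 0.55 for Dnajb1 (limma, adjusted p = 0.0414). Dnaja1 was at -0.38 in non-diabetic mice (adjusted p = 0.046), with a difference of -0.47 (adjusted p = 0.13). Of the 6 small heat shock proteins 5 passed for the interaction, against 11.5% of all genes (1272). Hspb1, higher in treated diabetic mice, gave 46875, 46717, 37389 and 54052 without and 24665, 23600.2, 13632 and 12043 with RBX in non-diabetic mice, a fall of 1.38 (adjusted p = 5.83e-05) and an interaction of 2.18 (adjusted p = 0.000205). Contractile smooth muscle genes showed the same contrast, 21 of 26 passing for the interaction with a median of -1.06 in non-diabetic and 0.20 in diabetic mice. With the cre signal as a covariate 0 of the 11042 genes passed for the interaction, and with the Actb ratio 341. Across all genes the log2 fold changes of RBX in diabetic and non-diabetic mice had r = 0.12, a description over genes, which are not independent, and 55.3% had the same sign. Among genes at an unadjusted p under 0.05 in diabetic mice 67.9% did.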

How the data were processed

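Per the labels' protocols, RNA of each whole aorta came from a Trizol extraction, and 2 ug went into the labelled cRNA. The authors computed the signals with MAS5, per the submitters' processing notes, which name no version. The deposited values are linear intensity of 45101 probe sets, scaled per array to a trimmed mean of 1500.01 (2% left out at each end), so a change is read against the average of its array. Detection calls were not used here, and the number of arrays limits the precision.

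Names came from GEO's platform annotation (34958 probe sets with 1 symbol, 932 with several and not named, 9211 unnamed here, 64 controls). The RefSeq table (GRCm38.p6) held 99.4% of those with 1 symbol. Log2 was taken without an offset. Probe sets whose mean over 16 arrays lay above the median (a signal of 381.5) were kept, and the one with the highest mean stands for its gene. limma 3.58.1 in R 4.3.3 fitted 4 group means to all 16 arrays with an intensity trend (12 residual and 6.2 prior degrees of freedom), two-sided, with Benjamini-Hochberg adjustment over 11042 genes. A gene was called at an adjusted p under 0.05. The scripts were tested on simulated data. A replicate is 1 mouse, as the titles say.

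The genes, lists and tests were chosen with earlier results of these data known, and none is independent support. Named were Prkcb and Apoe, every gene past the threshold before or after quantile normalization, the heat shock list, the 12 smallest p in each direction and the 10 largest changes in each direction (unadjusted p under 0.01) among genes without overlap, and up to 4 members of each list; 2 clones or predicted genes were not named. Promoters came from RefSeq. The replicate numbers are titles only and did not pair the mice (the deviations of same-numbered mice had correlations from -0.14 to 0.03).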

Additional observations from a re-analysis of the deposited data

Results flagged for a closer look

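Of the named genes, Cacybp had 1 mouse apart in the diabetic RBX group. Diabetic RBX mouse 4 was at 4524 and the 3 others between 5104 and 5116, its gap being 0.981 of the group's range. The 5' signal of 18S ribosomal RNA stood apart in the same mouse, the gap being 0.937 of the range on the log2 scale. In all 42 groups were tested for such a value, and chance alone sets about 1 in 20 groups apart in this way.

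The effect of RBX in diabetic mice differed from that in non-diabetic mice (limma interaction) by -0.58 for Dnajb1 (adjusted p = 0.0325), by 1.34 for Clcn5 (adjusted p = 0.00751), by 0.73 for Myo9b (adjusted p = 0.0043), by 0.64 for Rbm39 (adjusted p = 0.00475), by -1.60 for Rspo2 (adjusted p = 0.0272), by 0.93 for Smarcd3 (adjusted p = 0.00227) and by -2.54 for Apoe (adjusted p = 0.0418). With the cre hybridisation signal as a covariate 0 genes passed this test. That signal was highest in the non-diabetic RBX arrays and cannot be told apart from that group. The 3 other probe sets of Clcn5 differed in the opposite direction. They were at 0.04, 0.15 and -1.06 in diabetic and at 0.61, 0.39 and 1.32 in non-diabetic mice. In the diabetic RBX mice the mean signals of Rspo2 (271.2) and Apoe (282.1) lay below the filter signal of 381.5.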

How the results depend on the processing

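The count of 5 called genes moved with the settings. It was 1 with the 18S signal (chosen after seeing the data) or the Actb ratio as a covariate and without an intensity trend, 2 with the mean of a gene's probe sets, 8 with all probe sets apart, 13 with a filter at the 70th percentile, 15 after quantile normalization, 16 with the cre signal as a covariate, and 36 with array weights or with only the 8 diabetic arrays. With each of the 8 mice left out in turn it ran from 1 to 5. Hspa1b passed in each of the 24 alternatives, Hspa1a in 18, Dnajb1 in 14, Dnaja1 in 13 and Son in 8. With the mean of probe sets Son was at -0.058 and Hspa14 at 0.066, each of the opposite sign; the cause was not tested. The medians of 22 of the 37 gene lists kept their sign in every alternative, among them the heat shock, unfolded protein response, contractile smooth muscle and adventitial fibroblast lists, and 15 changed it at least once (brown adipocyte genes from -1.16 to 0.15). For the interaction 1272 genes became 341 with the Actb ratio and 0 with the cre signal as a covariate, and 771 to 1529 with each diabetic mouse left out, the lowest without diabetic mouse 3. The cre signal ran with the non-diabetic RBX group, so the fit with it cannot tell them apart. With a replicate block 5 genes passed, 4 of them the same, and 1382 for the interaction; with the block on the 8 diabetic arrays alone, chosen after seeing the data, 10 passed. The pairing was not borne out by the data, since only 1 of the 4 diabetic mice correlated best with the RBX mouse of its own number. Values near the filter of 381.5 are the least certain, since no background level was known.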
